A study of Homo sapiens with 4 samples.

Results

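The guanylate-binding protein (GBP) genes and the apolipoprotein L (APOL) genes were followed in the gastric cancer line SNU638. They were taken by symbol from the deposited table of read counts. The 10 genes were GBP1, GBP2, GBP3, GBP4 and GBP5, and APOL1, APOL2, APOL3, APOL4 and APOL6, of 46427 genes listed. All 10 had enough reads to be tested, in a table of 17781 tested genes. RNA was sequenced from cells with the control vector (Control, 2 biological replicates) and from YTHDF1-overexpressed cells (YTHDF1, 2 biological replicates). YTHDF1 is a cytoplasmic protein that binds N6-methyladenosine in mRNA, and the comparison asks how its overexpression bears on IFN-γ responsiveness. The methods describe transfection of plasmids, and the share of cells that took up the vector is not given in the sources used here. All 4 cultures were without serum for 24 h and then received IFN-γ at 10 ng/ml, for 8 h by the sample labels, whereas the legends of the study give a longer time. No untreated cells were part of the comparison, so the induction of these genes by IFN-γ itself cannot be read from these libraries.

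IFN-γ binds a receptor made of IFNGR1 and IFNGR2, which activates the kinases JAK1 and JAK2. The signal reaches DNA at GAS elements (gamma-activated sequences) and, through the transcription factor IRF1, at interferon-stimulated response elements (ISRE). GBPs are large GTPases that assemble on vacuoles and on the surface of intracellular bacteria, where they help caspase-4 to detect lipopolysaccharide. GBP1 carries a farnesyl lipid tail, and GBP2 and GBP5 a geranylgeranyl tail. APOL1 is the secreted trypanosome-killing protein of human serum, APOL3 breaks bacterial membranes inside the cell, and APOL6 carries a cell-death motif. APOL2 and APOL4 are intracellular relatives whose roles are less settled.

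The 5 GBP genes lie side by side on chromosome 1, on the minus strand, between 89006680 and 89272860 (GRCh38.p14, RefSeq), with GBP7 as the other coding gene among them. APOL1 to APOL4 lie between 36140323 and 36267525 on chromosome 22, and APOL6 lies apart from them at 35648446 to 35668404. The RefSeq promoter table held 3 of the 10 members, GBP1, GBP3 and GBP4. The stretches below are shown because an ISRE core was found in each of them, and they are read 5′ to 3′ on the gene's strand with the matched cores in capitals. The searched letters were GAAA, any 2 bases and GAAA for the ISRE core, and TTCNNNGAA for the GAS core, on both strands, from 250 bases before to 50 bases after the start of the gene.
GBP1, chr1:89065316-89065345, minus strand: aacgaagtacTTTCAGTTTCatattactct
GBP3, chr1:89022855-89022884, minus strand: cacTTCCTTGAAagaagtacTTTCAGTTTC
GBP4, chr1:89198937-89198966, minus strand: tccccacaaagtgcatgtccTTTCAATTTC
With the first transcribed base as +1, the ISRE core lay at −127 to −118 in GBP1, at 3 to 12 in GBP3 and at −4 to 6 in GBP4, each time on the opposite strand. GBP3 also held a GAS core at −15 to −7, and no match of the ISRE core overlapped it. The stretches of GBP1 and GBP3 shared a run of 17 bases that ended with the ISRE core, and 2 of the 35116 promoters of the table held that run, those of GBP1 and GBP3. An ISRE core occurred in 3.57% and a GAS core in 7.66% of the 35116 promoters. A match is a description of the letters and not a proven binding site. Other spellings of either element were not searched, so a missing match does not show that an element is absent.

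Total counts ran from 57398137 to 60864942 per library. YTHDF1 itself had 82.2 and 80.3 CPM (read counts relative to the scaled library size) with the control vector. It had 16494 CPM in YTHDF1 replicate 1 and 2628 CPM in YTHDF1 replicate 2, far above both Control libraries and 6.28-fold apart. The libraries that share a replicate number resembled each other more than the replicates of a group did. Pearson's r of log2 CPM across the tested genes, which are not independent replicates, was 0.985 and 0.983 between the vectors within replicates 1 and 2, against 0.885 and 0.888 between the replicates of Control and of YTHDF1. The epithelial markers EPCAM, CDH1, KRT8, KRT18 and KRT19 were present in each library, with a summed level of 3861 to 4059 CPM in the replicate 1 libraries and 6405 to 6719 CPM in the replicate 2 libraries. All 6 gastric markers were under 1 CPM, with CLDN18, TFF1, TFF2 and GKN1 at 0, so the stomach label was not visible in them. The 5 leukocyte markers and the 3 endothelial markers were under 1 CPM in each library. Their sums were 0.815 to 1.04 CPM and 0.421 to 0.560 CPM in the replicate 1 libraries, and 0.388 to 0.480 CPM and 0.232 to 0.300 CPM in the replicate 2 libraries. Of the 4 fibroblast markers 3 were under 1 CPM, and the sum of 11.02 to 11.12 CPM in replicate 1 and 6.14 to 6.42 CPM in replicate 2 came mostly from COL1A1. The part of these differences in the results below was not tested.

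Levels of the GBP genes were alike between the vectors in their CPM and far apart between the replicate numbers. GBP1 had 69.4 CPM in Control replicate 1, 215 CPM in Control replicate 2, 67.1 CPM in YTHDF1 replicate 1 and 206 CPM in YTHDF1 replicate 2. GBP2 had 44.0, 111 (Control replicates 1 and 2), 38.7 and 111 CPM (YTHDF1 replicates 1 and 2). GBP3, whose product lacks the lipid tail of GBP1, had 63.8, 135, 67.8 and 129 CPM in the same order. In each of these 3 genes both replicate 2 libraries lay above both replicate 1 libraries, and the Control and YTHDF1 libraries overlapped. GBP4 was the most abundant GBP by CPM, with 211, 597, 201 and 589 CPM. GBP5 had 82.5, 335, 84.1 and 332 CPM. In GBP4 and GBP5 too, both replicate 2 libraries lay above both replicate 1 libraries, with overlap of the vectors. The share of all reads that fell on the 5 GBP genes was 0.0477% (Control) and 0.0461% (YTHDF1) in the replicate 1 libraries, and 0.138% and 0.136% in those of replicate 2.

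The APOL genes spanned a wider range of behaviour. APOL1 had 117 CPM (Control) and 108 CPM (YTHDF1) in replicate 1, and 193 and 183 CPM in replicate 2. Ordered as for the GBP genes, APOL2 had 238, 334, 245 and 330 CPM, and APOL6 had 310, 475, 322 and 478 CPM. APOL4 was lower in level, with 32.9, 70.4, 29.3 and 68.1 CPM. In these 4 genes the replicate 2 libraries were again above the replicate 1 libraries, with a larger ratio in APOL4 than in the other three. APOL3 stood apart with 23.7, 23.0, 23.0 and 22.5 CPM, from 1307 to 1408 counts per library. Its 4 libraries lay within a narrow range, and APOL3 was the member in which the replicate numbers overlapped.

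**Figure D1:**
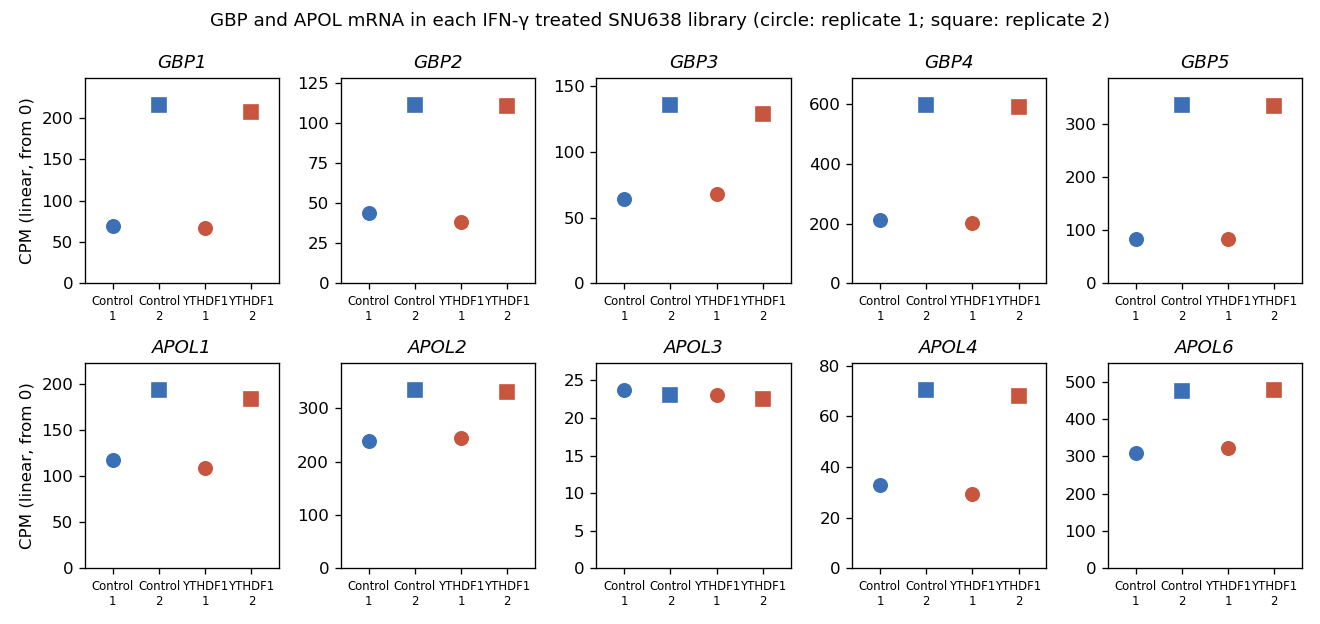
CPM (linear axis from 0) of each of the 10 genes in the 4 libraries, with Control in blue, YTHDF1 in red, replicate 1 as circles and replicate 2 as squares, 1 point per library. Squares lie above circles in 9 of the 10 panels, whereas blue and red points of the same shape lie close together, and APOL3 is level between 22.5 and 23.7 CPM.

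Per length, the order of the genes also differed between the replicate numbers. Levels between genes are compared as CPM per kb of the joined exons of each gene in GENCODE release 29, which counts rarely used exons too and so understates genes with many of them. In the replicate 1 libraries APOL2 was highest, with a mean level of 69.4 CPM per kb, ahead of GBP4 (33.6), APOL1 (32.1) and APOL6 (31.2). In the replicate 2 libraries GBP4 (96.8 CPM per kb) and APOL2 (95.4) led, and APOL1 (53.5) and APOL6 (47.1) followed. GBP4 and APOL2 lay close in replicate 2, with 96.2 to 97.4 against 94.8 to 96.0 CPM per kb. APOL1 and APOL6 did not differ beyond their spread in replicate 1, where they changed places between Control (33.3 and 30.6 CPM per kb) and YTHDF1 (30.8 and 31.8). GBP1, GBP5 and GBP3 were next in replicate 2, with 42.2, 41.0 and 30.7 CPM per kb, whereas the order in replicate 1 was GBP3 (15.3), GBP1 (13.7) and GBP5 (10.2). GBP2 and APOL4 were low in both, at 6.59 and 7.11 CPM per kb in replicate 1 and 17.7 and 15.8 in replicate 2. APOL3 was the lowest in each library, at 3.82 to 4.01 CPM per kb.

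YTHDF1 overexpression was not accompanied by a called change of any of the 10 genes. The question was whether overexpressed YTHDF1 changed the mRNA levels of these interferon-induced genes under IFN-γ. A gene was called where its log2 fold change reached 0.5 in either direction with p under 0.05 (edgeR's quasi-likelihood test). At the unadjusted p, 0 of the 10 members were called, against 0.101% of all tested genes (18 of 17781), of which 0.0225% were higher and 0.0787% lower. With Benjamini-Hochberg adjusted p over all tested genes, 0 members and 0 genes were called in either direction, and 0 members had an unadjusted p under 0.05 at any fold change, while DESeq2's Wald test called 3 genes at the adjusted p and 0 members. The log2 fold changes of the members ran from −0.091 for APOL1 (standard error 0.39) to 0.026 for APOL6 (standard error 0.32). The median was −0.032 over the GBP genes and −0.037 over the APOL genes, beside 0.0046 over all tested genes.

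These estimates leave wide margins, because the spread between the replicates of a group is large. The fit has no term for the replicate number, so the difference between the numbers counts as spread within a group and widens these margins. With that term, an alternative only, the standard error was 0.044 for GBP5, 0.045 for GBP1 and 0.044 for APOL1, with 0 members called. Without it, the standard errors were 1.01, 0.83 and 0.39 in the same order, and the intervals below are from this fit. The interval of 95% for the log2 fold change was −2.93 to 2.92 for GBP5, −2.47 to 2.35 for GBP1, −1.22 to 1.04 for APOL1 and −0.39 to 0.31 for APOL3. YTHDF1 itself, at 6.88 log2 units (standard error 1.20), had an adjusted p of 1.00 in this quasi-likelihood test of edgeR, so the counts of 0 do not show that no member changed.

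Differences within a replicate number were small. Within replicate 1, YTHDF1 minus Control ran from −0.19 log2 units for GBP2 to 0.088 for GBP3. Within replicate 2, the replicate with less YTHDF1, it ran from −0.077 for APOL1 to 0.0082 for APOL6. The GBP medians were −0.049 and −0.018, and the APOL medians were −0.041 and −0.033, within replicates 1 and 2. All 10 members lay under 0.2 log2 units in size within both numbers, as did 60.7% of all tested genes and 90.5% of those with a mean of at least 10 CPM. The sign differed between the replicate numbers for GBP3, GBP5 and APOL2, and for 48.3% of all tested genes. Within replicate 2, 9 of 10 members were lower with YTHDF1, beside 8619 of the 17781 tested genes, and within replicate 1 it was 6 of 10, beside 8466 of 17781.

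With YTHDF1 APOL1 was lower by 0.11 log2 units within replicate 1 (counting error 0.025) and by 0.077 within replicate 2 (counting error 0.019). Differences beyond 2 counting errors were seen in 7 of the 10 members within replicate 1 and in 3 within replicate 2, beside 43.3% and 29.1% of the genes with a mean of at least 10 CPM. APOL1 was the 1 member beyond 2 counting errors in the same direction within both numbers, as were 7.36% of those genes and 5.06% of all tested genes. It did not pass the test without a term for the replicate number (adjusted p = 1.00, edgeR's quasi-likelihood test). With that term its log2 fold change was −0.095 (standard error 0.044, unadjusted p = 0.059, edgeR's quasi-likelihood test), and it was not called. GBP3 exceeded 2 counting errors within both numbers too, with opposite signs, at 0.088 and −0.073. APOL4 differed by −0.16 and −0.047, and GBP2 by −0.19 and −0.0042, so for both the larger difference was in replicate 1. In 1 member, APOL3, both YTHDF1 libraries lay below both Control libraries, with differences of −0.041 and −0.033 log2 units, within its counting errors of 0.055 and 0.056. Such separation was seen in 11.5% of all tested genes, with YTHDF1 higher in 5.67% and lower in 5.83%. Counting errors cover the number of reads only, which are not independent molecules, and take no account of differences between cultures.

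**Figure D2:**
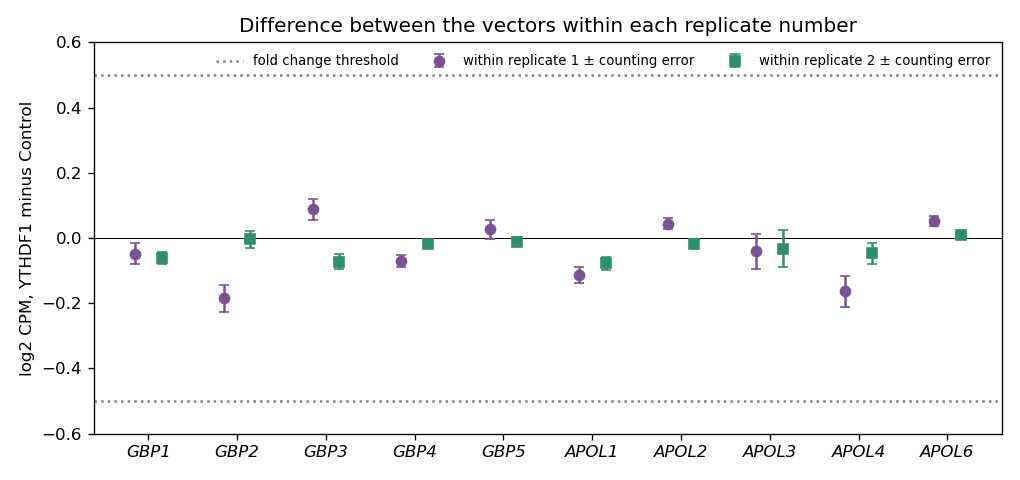
Difference of log2 CPM, YTHDF1 minus Control, for each gene within replicate 1 (purple circles) and within replicate 2 (green squares), each from 1 library per vector, with bars for 1 counting error and dotted lines at the fold change threshold of 0.5 in size. The points lie between −0.19 and 0.088, well inside the dotted lines.

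Between the replicate numbers the picture was different. Replicate 2 was compared with replicate 1 in a model with vector and replicate number, in which the labels give the numbers no meaning beyond biological replicate. This comparison was made because the members differ along it, so its p-values describe that difference and are no independent support for it. They rest on how alike the difference was in Control and in YTHDF1, with the variance of each gene drawn towards that of the other tested genes. The comparison says nothing on which feature of the cultures differed. Of the 10 members 8 were called higher in the replicate 2 libraries and 0 lower, by the same fold threshold and an adjusted p under 0.05 (edgeR). Of all 17781 tested genes 25.7% were called, 9.71% higher and 16% lower (at the unadjusted p, 10.6% were higher), so a large part of the transcriptome differed along the same line. Among the 9992 genes with a mean of at least 10 CPM, 7.44% were called higher, and 1.73% had a log2 difference of at least 1, which 6 of the members had. In bulk RNA, fewer responding cells and less RNA per cell cannot be told apart.

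All 5 GBP genes were called higher. By edgeR's test GBP5 differed by 2.00 log2 units with an adjusted p of 8.73e-10 (standard error 0.045), which is 4.01-fold. It differed by 2.02 within Control and by 1.98 within YTHDF1, and 0.647% of the tested genes had a larger rise. GBP1 (1.63, standard error 0.045, adjusted p = 3.47e-09) and GBP4 (1.53, standard error 0.042, adjusted p = 3.18e-09) followed, at 3.09-fold and 2.88-fold. GBP2 differed by 1.43 (standard error 0.057), with 1.34 within Control and 1.52 within YTHDF1. GBP3 rose least among the GBP genes, by 1.00 (standard error 0.053, adjusted p = 2.80e-07), and its interval of 0.89 to 1.12 lay below those of the other four. The GBP median was 1.53, beside −0.012 over all tested genes.

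Among the APOL genes 3 were called higher. By edgeR's test APOL4 differed by 1.16 log2 units with an adjusted p of 1.80e-07 (standard error 0.057), or 2.23-fold. Its estimate was above that of GBP3, but their 95% intervals overlapped (1.03 to 1.28 and 0.89 to 1.12). APOL1 differed by 0.74 (standard error 0.044) and APOL6 by 0.59 (standard error 0.041), or 1.67-fold and 1.51-fold. APOL2 had an adjusted p of 1.51e-05 with a difference of 0.46, which is under the fold change threshold. APOL3 did not pass the test, with −0.035 (95% interval −0.19 to 0.12, adjusted p = 0.691). The APOL median was 0.59. With the members put in order of this difference, the values within Control and within YTHDF1 overlapped for 1 of 9 neighbouring pairs, GBP4 and GBP2. The 95% intervals of the fit overlapped for that pair too. They also overlapped for GBP1 and GBP4, APOL4 and GBP3, APOL1 and APOL6, and APOL6 and APOL2. Libraries of the 2 numbers did not overlap for 9 of the 10 members, which were higher in replicate 2, and for 77.1% of all tested genes, 36.8% higher and 40.4% lower.

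**Figure D3:**
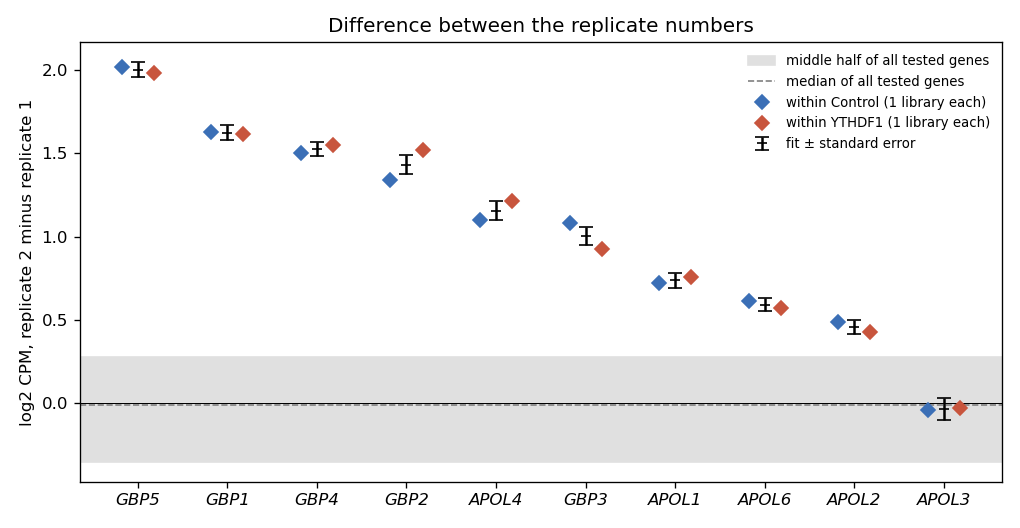
Difference of log2 CPM, replicate 2 minus replicate 1, for each gene in descending order, as the fitted value with 1 standard error (black) and within Control (blue) and within YTHDF1 (red), each from 1 library per number. The grey band spans the quartiles of all tested genes, from −0.35 to 0.28, and APOL3 is the 1 gene inside it.

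The differences between the replicate numbers also changed the make-up of the GBP pool in read counts. GBP5 reads were 17.5% and 18.3% of the summed GBP counts in the replicate 1 libraries of Control and YTHDF1, and 24.0% and 24.3% in the replicate 2 libraries. The share of GBP3 moved the other way, from 13.6% and 14.8% to 9.71% and 9.41%, although its CPM rose. GBP4 remained the largest part, between 42.8% and 44.8%. Within the APOL counts, APOL4 made up 4.55% and 4.03% in replicate 1 and 6.42% and 6.30% in replicate 2. The share of APOL3 fell from 3.28% and 3.16% to 2.10% and 2.08% of the summed counts, while its CPM was level. The summed GBP level was 2.96-fold higher in replicate 2 than in replicate 1 within Control and 2.98-fold within YTHDF1, and the summed APOL level was 1.52-fold and 1.49-fold higher.

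Reads from near-identical stretches could have been split between genes, depending on the authors' counting. In the GENCODE transcripts, 9.62% of the windows of 50 bases of GBP1 also occur in another gene, mainly in the pseudogene GBP1P1 (6.60%) and in GBP3 (3.40%). For GBP2 it was 10.2%, mainly in GBP7, and for GBP3 4.76%. The share was 4.03% or less for the other members, 0.396% for GBP5 and 0.140% for APOL3, the genes at either end of the order above.

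The relatives outside the 10 genes had few reads. GBP1P1, an untranslated copy of GBP1, had 110 (Control) and 113 (YTHDF1) counts in replicate 1 and 320 and 342 counts in replicate 2, a log2 difference between the numbers of 1.58 (standard error 0.17). Given the shared windows, these reads cannot be told apart with certainty from GBP1 reads. GBP7 had 9 and 5 counts in replicate 1 and 28 and 32 in replicate 2. GBP6 had 2 to 7 counts per library, and APOL5 had 0 in each library, where a count of 0 allows up to 3.

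Upstream of the GBP and APOL genes, most of the listed genes were higher in replicate 2, but the differences were not all in one direction. Of the 12 genes listed for IFN-γ signalling all were tested. Between the vectors 0 were called at the unadjusted p by the same rule, beside 0.101% of all tested genes. In replicate 2, 3 were called higher and 0 lower at the adjusted p, beside 9.71% and 16% of all tested genes. The median log2 difference of the list was 0.36, beside −0.012 over all tested genes. IRF1 had 813 CPM (Control) and 832 CPM (YTHDF1) in replicate 1, and 1044 and 1078 CPM in replicate 2, a log2 difference between the numbers of 0.37 (standard error 0.040), which is under the fold change threshold. The kinase genes went opposite ways, with a difference of 0.63 for JAK2 (standard error 0.046), which was called, and −0.40 for JAK1 (standard error 0.054), which was not. The receptor genes IFNGR1 and IFNGR2 had differences of −0.11 and −0.034 and did not pass the test. IRF8, with 2.10 to 6.49 CPM in the 4 libraries, was called too, at 1.58 (standard error 0.16). Between the vectors, IRF1 differed by 0.034 within replicate 1 and 0.046 within replicate 2.

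Genes whose products act on or with GBPs differed in both directions between the replicate numbers. Of the 14 listed, 12 were tested, and 4 were called higher and 3 lower at the adjusted p, beside 9.71% and 16% of all tested genes, with a median log2 difference of −0.077. Those called higher were AIM2 (1.19, standard error 0.25), RNF213 (0.80), CASP1 (0.74) and CASP4. Those called lower were IRGM (−1.85, standard error 0.50), LGALS3 (−0.84) and PIM1. Of these, AIM2, RNF213, CASP1, IRGM and LGALS3 are named after their values were seen. IRGM had few reads, with 43 (Control) and 39 (YTHDF1) counts in replicate 1 and 7 and 16 in replicate 2. AIM2 had 45 to 123 counts per library. FNTA and FNTB, which encode the farnesyltransferase that modifies GBP1, differed by −0.17 and −0.14, and PGGT1B, a subunit of the enzyme that adds geranylgeranyl tails, by −0.010. PIM1, the kinase that phosphorylates GBP1, was lower in replicate 2 by 1.19 log2 units (a difference of −1.19, standard error 0.13). CASP4, the caspase recruited to GBP coats, was higher by 0.62 (standard error 0.051), and GSDMD, the pore protein it cuts, differed by −0.17. Between the vectors 0 of these genes were called, at the unadjusted or the adjusted p, beside 0.101% and 0% of all tested genes.

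The tested genes next to the GBP cluster differed less between the replicate numbers than the GBP genes. Beside GBP3, the overlapping genes KYAT3 and RBMXL1 differed by 0.56 and 0.32 log2 units between the replicate numbers, and GTF2B by 0.0031. On the other side LRRC8B, 252 kb from GBP5, differed by 0.27. The smallest GBP difference, 1.00 in GBP3, was above these 4 values. Around APOL1 to APOL4 the neighbours lay below APOL4 and APOL1 and among APOL2 and APOL3. MYH9, 13.8 kb from APOL1, differed by 0.52, FOXRED2 by 0.56, TXN2 by 0.12, and RBFOX2, between APOL6 and APOL3, by −0.027. APOL3 lay at the RBFOX2 end of its cluster, and its difference was close to that of RBFOX2 and to the median of all tested genes (−0.012). RBFOX2 was 111.5 kb from APOL3 and 70.3 kb from APOL6, which differed by 0.59. Beside APOL6, MCM5 differed by −0.32, and MB and RASD2, at 0.156 and 0.508 CPM on average, by −3.94 and −3.57.

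**Figure D4:**
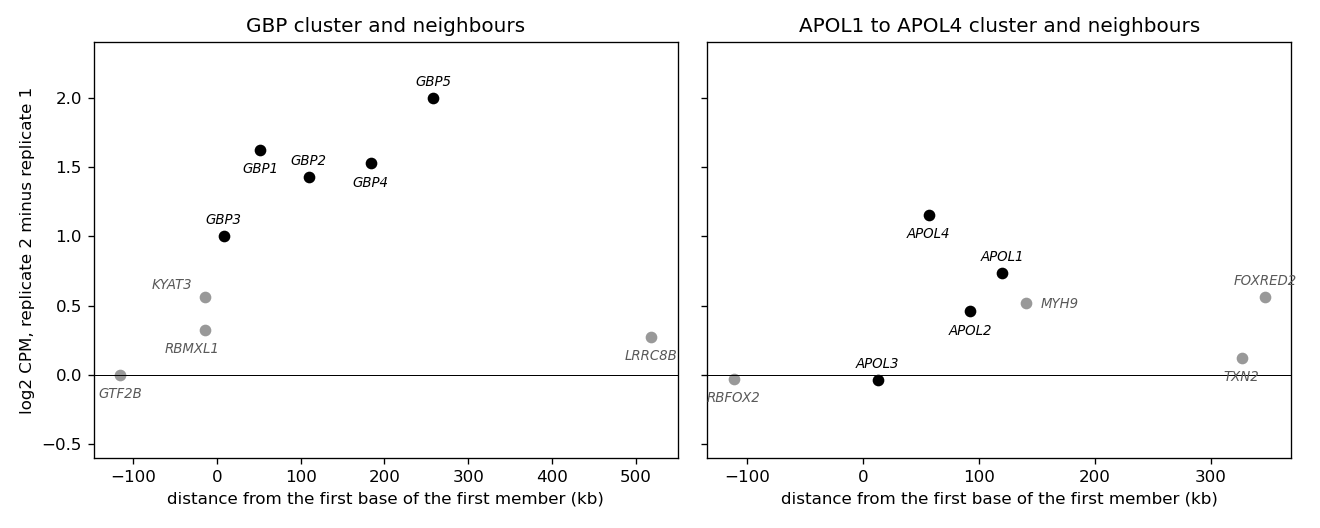
Difference of log2 CPM, replicate 2 minus replicate 1 (fitted values), against distance in kb from the first base of the first member, for the GBP cluster (left) and for APOL1 to APOL4 (right), with members in black at their midpoint and tested coding neighbours in grey at their nearest end. The 5 GBP genes lie at 1.00 to 2.00, above their neighbours, whereas APOL1 and APOL4 lie above theirs and APOL2 and APOL3 among them.

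For likeness of pattern, the log2 CPM of each gene was centred over the 4 libraries and compared with the mean of the family, by the root mean square difference, over 9982 other genes with a mean of at least 10 CPM. Among the 5 genes nearest to the GBP mean were GLS2 (0.022 log2 units), IDO1 (0.023), PADI2 (0.036) and the long non-coding RNA LOC105372202 (0.038). IDO1, which encodes a tryptophan-degrading enzyme, had 97.1, 265.7, 92.8 and 262.6 CPM in Control replicates 1 and 2 and YTHDF1 replicates 1 and 2. GBP4 was at 0.013 from the mean of its own family and GBP3 at 0.26. The genes nearest to the APOL mean were NCOR1 (0.0060), ECHS1 (0.0070), VAT1 (0.011), CEP250 (0.011) and KAT2A (0.013), all nearer than any APOL gene, of which APOL6 was at 0.038 and APOL3 at 0.31. With 4 libraries that fall into 2 pairs such likeness is a description only.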

How the data were processed

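Total RNA of 4 SNU638 cultures was made into stranded poly(A) libraries. The values deposited by the authors are raw read counts for each gene, not normalized. The submitters' processing notes name Trimmomatic, HISAT2 and GRCh38, and the counting tool, its strand setting and the annotation release are not given in the sources used here, so reads of overlapping or near-identical genes may have been split or shared.

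Tests were run with edgeR 4.0.16 under R 4.3.3, using filterByExpr, TMM scaling and the quasi-likelihood test with Benjamini-Hochberg adjustment over 17781 genes. Total counts were 57398137 to 60864942 per library. The labels call the samples biological replicates. Between the vectors, p-values measure only the spread between the replicates of a group. Between the replicate numbers, they measure how far that difference varied between Control and YTHDF1, and not the spread between further cultures. In both comparisons the test draws the variance of a gene towards that of the other tested genes. Within each group the counts of the replicates were further apart than sampling noise (chi-square per degree of freedom 136 in Control and 167 in YTHDF1). Standard errors were derived from the fold change and the F statistic. CPM use TMM-scaled library sizes, and log2 CPM a prior count of 0.5. Lengths and transcripts are from GENCODE release 29, positions and promoters from RefSeq.

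The members, lists and tests were chosen with earlier results of these data known. The text names the 10 members, 4 relatives, up to 6 genes of each of the 2 pathway lists (and others where the text says so, with IRF8, named after their values were seen), up to 3 coding neighbours per side and up to 5 genes nearest in pattern per family. A few genes that this rule selects are not reported here.

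The scripts were tested on simulated data. Alternatives were DESeq2 1.42.0 size factors and its Wald test, other filters, library sizes without YTHDF1, the replicate block, the number alone, and each library left out.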

Additional observations from a re-analysis of the deposited data

How the results depend on the processing

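Between the replicate numbers, 8 members were called higher and 0 lower under each of the 5 alternatives with a test, and no member changed direction. With 1 library left out only the other vector's pair gives a value, without a test, and the median was 1.501 to 1.561 for the GBP genes and 0.57 to 0.62 for the APOL genes. Between the vectors, 0 members were called under each alternative. The number of genes called at the unadjusted p, 4 higher and 14 lower, was 32 and 50 without the filter on low counts. At the adjusted p DESeq2's Wald test called 1 higher and 2 lower, against 0 and 0. The deviations of same-numbered libraries correlate at 0.875, and the fit without the replicate block counts this shared difference as spread within a group. The replicate numbers have no stated meaning and only 2 pairs exist, so the replicate block is an alternative only. With it, 58 genes were called higher and 134 lower at the unadjusted p and 1 and 7 at the adjusted p, with 0 members among them and an adjusted p of 1.00 for each of the 10. Under the block GBP3 and GBP5 changed sign, to 0.0038 (standard error 0.052) and 0.0069 (standard error 0.044).

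Leaving out 1 library unbalances the replicate numbers, so their difference enters the comparison of the vectors, and the lone library is assumed to vary like the others. The calls at the unadjusted p were then 4 to 49 higher and 11 to 55 lower. The GBP median ran from −1.01 without YTHDF1 replicate 2 to 0.91 without Control replicate 2, and the APOL median from −0.29 to 0.31. The log2 fold change ran from −1.09 to 0.98 for GBP1, −1.01 to 0.77 for GBP2, −0.56 to 0.62 for GBP3, −1.01 to 0.91 for GBP4, −1.32 to 1.34 for GBP5, −0.53 to 0.31 for APOL1, −0.23 to 0.27 for APOL2, −0.82 to 0.57 for APOL4 and −0.29 to 0.37 for APOL6. APOL3 kept its sign, from −0.058 to −0.017. Each member had at least 1307 counts in each library. For APOL3, the member with the fewest, the differences between the vectors lay within the counting error.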
